A study of Drosophila melanogaster with 12 samples.

Results

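The genes described here build, organise and break down chitin in Drosophila melanogaster embryos, together with the Osiris family that is active in cuticle-forming cells. They were chosen by symbol. All rows of the counts table whose gene number carries an Osi, Cht or Idgf symbol with a number were taken, and kkv, knk, serp and verm were added. This gave 45 of 17561 genes, made up of 25 Osiris genes, 10 chitinases (Cht), 6 Idgf genes and 4 genes of chitin synthesis and assembly. Whole embryos aged 20 to 24 h were sequenced as poly(A) RNA in 12 libraries, 3 in each of 4 groups. The groups were elav null, elav fne double null (elav and fne null alleles together), elav WDd (an elav allele that the labels do not describe further) and WT. ELAV and FNE are related neuronal RNA-binding proteins. The WT embryos carry a mutant elav allele, named e5 in the labels, over the balancer chromosome FM7. Mutant embryos were recognised by lacking the fluorescent marker of that balancer, so presence of FM7 and the elav genotype cannot be told apart in any comparison with WT. Nothing in the labels shows that replicates are independent collections of embryos, so each p-value speaks only of the spread among these libraries, which may be technical.

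Chitin is a polymer of N-acetylglucosamine that stiffens the insect cuticle, lines the tracheal tubes and forms part of the peritrophic matrix of the gut. Chitin synthase at the apical membrane extrudes the fibres, secreted deacetylases and organising proteins shape them, and chitinases cut them. The Idgf proteins (imaginal disc growth factors) are chitinase relatives that bind sugars but have lost the catalytic residue. The Osiris proteins are an insect-specific family of secreted or vesicle-associated proteins, most of them encoded in a single cluster that lies in the dosage-sensitive Triplo-lethal region.

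The libraries held 22491041 to 97043662 counts. elav stood at 3.99 to 6.27 CPM (reads scaled to a common library size with TMM factors) in the elav null and double null libraries, at 145.5 to 191 CPM in elav WDd and at 68.6 to 160.5 CPM in WT. fne stood at 19.6 to 30.6 CPM in the double null. It stood at 173 and 243 CPM in elav null replicates 1 and 2 and at 214 to 276 CPM in elav WDd, against 135 to 250 CPM in WT. The library labelled elav null replicate 3 had 36.2 CPM of fne, near the double null level. Transcripts of w, which encodes an eye pigment transporter, reached 109 CPM in that library and 89.2 to 102 CPM in the double null, but stood at 6.43 and 14.7 CPM in elav null replicates 1 and 2, at 0.254 to 1.67 CPM in elav WDd and at 4.74 to 8.79 CPM in WT. By fne, w and the muscle markers given next, it sat with the double null libraries and went against its label, so every elav null mean and test below includes a library of doubtful genotype. At an equal depth of 2e+07 counts, 10524 genes were detected with the library labelled elav null replicate 3, 11869 with elav null replicate 1 and 11557 with double null replicate 2, while every other library gave 13259 to 15578. Low counts were rare in those 3 libraries. The lowest non-zero count of any of the 45 genes was 16, 39 and 41 reads there, against 1 to 7 reads in the others, so a 0 in them cannot be set beside a 0 in the others. Summed over 7 eggshell and yolk genes, elav null replicate 2 held 575 CPM and elav null replicate 1 held 77.5 CPM. The library labelled elav null replicate 3 held 13.7 CPM. The sums were 2.40 to 3.21 CPM in the double null, 1.16 to 1.66 CPM in elav WDd and 1.15 to 1.94 CPM in WT. By this sum the library labelled elav null replicate 3 lay above every double null library and below the other elav null libraries. Of 6 muscle markers, 5 were lower in elav null embryos and 6 in the double null by edgeR (median log2 fold change −2.04 and −3.62). They summed to 9328 and 5430 CPM in elav null replicates 1 and 2, 1399 CPM in the remaining library of that label, 1294 to 2934 CPM in the double null, 24310 to 25760 CPM in elav WDd and 20930 to 24530 CPM in WT. Their part in the changes reported here was not tested. Neuron markers summed to 1256 to 2153 CPM in elav null, 1102 to 1408 CPM in the double null, 1736 to 2339 CPM in elav WDd and 1199 to 2631 CPM in WT.

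Of the 45 genes, 43 passed the low-count filter and 13 were called in at least 1 of 6 comparisons (edgeR quasi-likelihood test with Benjamini-Hochberg adjustment over all 14031 genes tested, adjusted p under 0.05). In elav null against WT 4 of the 43 were higher and 7 lower, where 5.99% of all genes tested were higher and 11.7% lower (17.7% in either direction). In the double null against WT 5 were higher and 2 lower, where 6.68% of all genes were higher and 14.7% lower (21.4% in either direction). The comparisons with WT share the WT libraries, so they are not independent of each other. Read against these backgrounds, the counts do not set the 45 genes apart from the rest. Counts of called genes among the markers and in the other lists have the same shares as their background. In elav WDd against WT none was called by edgeR or by DESeq2, and 1 had an unadjusted p under 0.05, where 0.0641% of all genes were higher and 0.135% lower (0.200% in either direction). In whole-embryo RNA, fewer cells of a type and less RNA per cell cannot be told apart. With the library labelled elav null replicate 3 left out, 4 were higher and 9 lower in elav null, and of the 11 calls made with it 10 were kept and 1, Osi15, was lost. The lower count was 3 without elav null replicate 1 and 4 without WT replicate 1. Leaving out the 3 libraries that detected the fewest genes gave 3 higher and 5 lower in elav null, whose remaining library, replicate 2 with the most eggshell and yolk RNA, was assumed to vary like the other groups, and 6 higher and 4 lower in the double null.

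**Figure D1:**
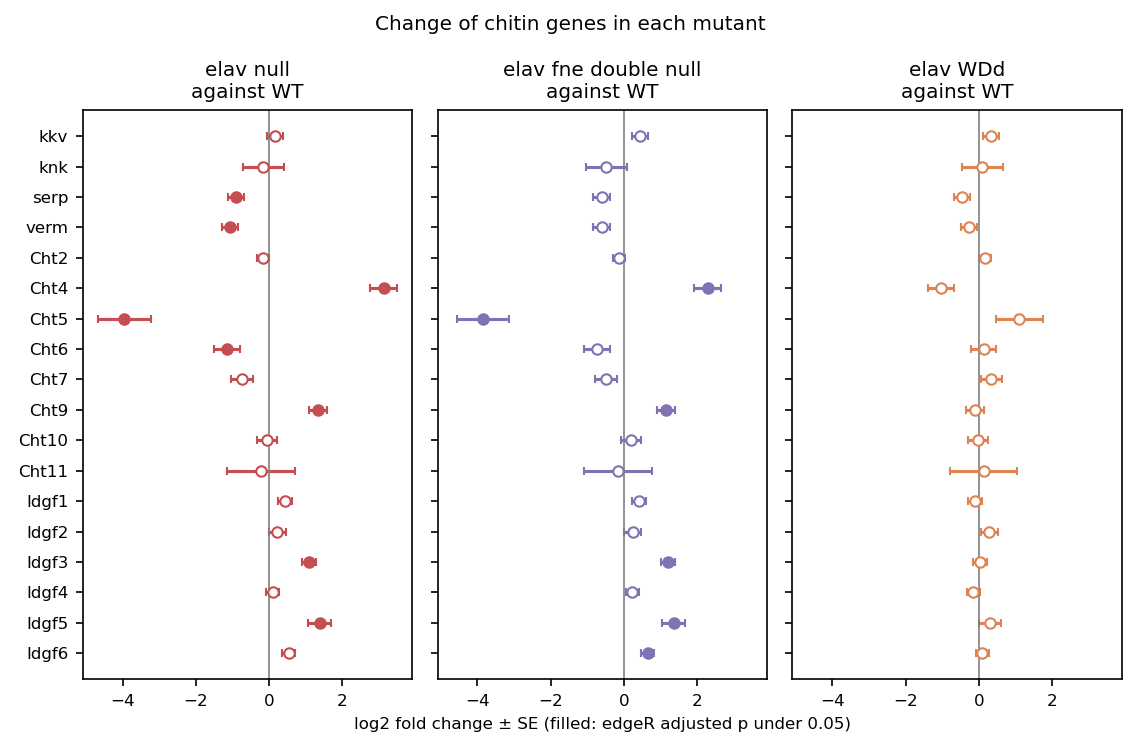
Log2 fold change against WT, with its standard error, of the 18 genes outside the Osiris family that averaged at least 1 CPM in a group, in 3 panels, the first for elav null, the next for the elav fne double null group and the last for elav WDd. Filled points passed the edgeR test at an adjusted p under 0.05. Cht4, Cht9, Idgf3 and Idgf5 lie to the right and Cht5 to the left in the panels of elav null and the double null, while no point is filled for elav WDd.

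Among the genes that make and assemble chitin, the deacetylase genes serp and verm were lower in elav null while kkv and knk were not called in any comparison. The median log2 fold change of the 4 genes was −0.53 in elav null and −0.55 in double null embryos, against −0.11 and −0.03 over all genes tested. verm (CG8756, 3L: 19690033 to 19695260 on dm6, minus strand) and serp (CG32209, 3L: 19700977 to 19708015, minus strand) are neighbours. They encode chitin deacetylases secreted into the tracheal lumen, where they limit tube length. verm stood at 325.5, 179 and 365 CPM in elav null replicates 1 to 3, at 409, 423 and 369 CPM in the double null, at 478, 487 and 548 CPM in elav WDd, and at 595.5, 673 and 565 CPM in WT. All 9 mutant libraries lay below all 3 WT libraries. The log2 fold change was −1.08 ± 0.23 SE in elav null (edgeR adjusted p = 0.00432). It was −0.61 ± 0.22 in the double null and −0.28 ± 0.22 in elav WDd, and neither passed the test (edgeR adjusted p = 0.0701 and 1). serp showed 162, 86.1 and 163 CPM in elav null, 173, 173 and 158 CPM in the double null, 170.5, 192 and 201 CPM in elav WDd, and 236, 311 and 225 CPM in WT. Again no mutant library reached the lowest WT library. serp fell by 0.91 on the log2 scale in elav null (SE 0.23, edgeR adjusted p = 0.0126), and had log2 fold changes of −0.61 ± 0.22 in the double null and −0.45 ± 0.22 in elav WDd that did not pass (edgeR adjusted p = 0.0703 and 1). Both genes passed in the double null when only the 6 libraries compared were fitted (edgeR adjusted p = 0.0312 for verm and 0.0436 for serp) and when the 3 libraries that detected the fewest genes were left out (0.0215 and 0.0359). In elav null serp lost its call when only the 6 libraries were fitted (edgeR adjusted p = 0.0857). verm passed in every alternative, with log2 fold changes from −1.76 to −0.82.

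kkv (CG2666, 3R: 5378093 to 5392866, minus strand) encodes the chitin synthase of the cuticle and the trachea. It stood at 180, 144 and 233.5 CPM in elav null, 242, 224 and 212 CPM in the double null, 184, 239 and 199 CPM in elav WDd, and 126.5, 158 and 213 CPM in WT. The groups overlapped in every comparison with WT, in the double null by its lowest library alone (212.1 CPM, against 212.8 CPM in the highest WT library). Its log2 fold changes were 0.16 ± 0.22, 0.45 ± 0.22 and 0.32 ± 0.22 SE in elav null, the double null and elav WDd (edgeR adjusted p = 0.679, 0.179 and 1). It was called in the double null without WT replicate 3 (0.68, edgeR adjusted p = 0.0379). knk (CG6217, 3R: 10122365 to 10125664, minus strand), whose product protects newly made chitin and helps to order it, was the lowest of the group. It stood at 1.56, 2.18 and 8.87 CPM in elav null, 3.54, 3.38 and 3.09 CPM in the double null, 3.55, 5.67 and 5.74 CPM in elav WDd, and 3.80, 5.06 and 5.11 CPM in WT. The library labelled elav null replicate 3 lay above all WT libraries and the other elav null libraries below them. Without it knk was called lower in elav null (log2 fold change −1.30, edgeR adjusted p = 0.037), and with it the log2 fold change was −0.16 ± 0.57 SE (edgeR adjusted p = 0.891). Tracheal markers, 5 genes, summed to 490 to 850 CPM in elav null, 695 to 821 CPM in the double null, 597 to 781 CPM in elav WDd and 587 to 776 CPM in WT. Of the 5, 1 was higher and 1 lower for elav null against WT, and 1 was higher for the double null. Their median log2 fold change against WT was −0.61 (elav null), −0.45 (double null) and 0.17 (elav WDd). The sums alone thus do not describe these markers. Their part in the serp and verm levels was not tested. Per kilobase of exon, the mean WT level was 258 CPM for verm, 101 CPM for serp, 29.1 CPM for kkv and 1.74 CPM for knk.

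**Figure D2:**
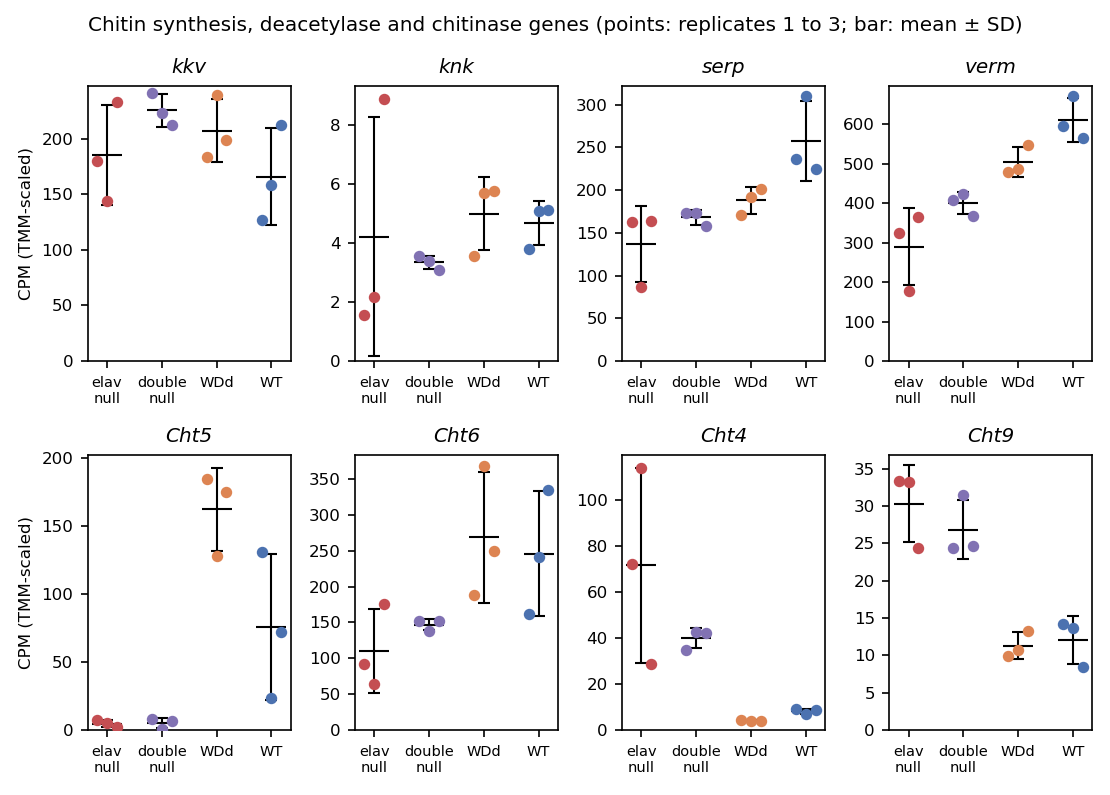
CPM of 8 genes in each library of the groups elav null, then elav fne double null, then elav WDd, then WT, on linear axes that start at 0. Points are replicates 1 to 3 and bars give mean ± SD of the 3. verm and serp are highest in WT, Cht5 is near 0 in elav null and the double null, and Cht4 and Cht9 are higher in both of those groups.

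Genes that feed and organise chitin outside the 45 were counted from 4 lists. Over all genes tested, 5.99% were higher and 11.7% lower in elav null, and 6.68% and 14.7% in the double null. Of 8 genes of precursor supply and chitin synthesis, 3 were higher and 2 lower in elav null and 2 higher and 2 lower in the double null (median log2 fold change 0.12 and 0.18). Gfat2, which encodes the entry enzyme of the hexosamine pathway, averaged 184 ± 50.7 CPM in elav null and 205 ± 22 CPM in the double null, against 47.5 ± 2.41 CPM in WT (SD, n = 3). It rose by a log2 of 1.96 ± 0.19 and 2.11 ± 0.19 SE (edgeR adjusted p = 2.09e-05 and 1.01e-05). exp and reb, whose products are needed together with Kkv for chitin to be made, were lower. exp averaged 28.5 ± 8.07 CPM in elav null and 29.5 ± 5.56 CPM in the double null, against 71.96 ± 7.73 CPM in WT (edgeR adjusted p = 0.00085 and 0.000863). reb averaged 19.2 ± 6.72 and 20.6 ± 2.55 CPM in these mutants, against 50.6 ± 6.18 CPM in WT (edgeR adjusted p = 0.00117 and 0.00154). Both fell in each of the 12 alternatives tried for each mutant. Chs2, the other chitin synthase gene of the fly, averaged 91.3 ± 23.5 CPM in elav null and 47.1 ± 11.9 CPM in WT (edgeR adjusted p = 0.00751), and lost its call when only the 6 libraries compared were fitted (0.0703). nst, which encodes a mutase of the same supply pathway, was the remaining gene called higher in elav null embryos and in the double null (log2 fold change 0.64 ± 0.17 and 0.59 ± 0.17 SE, edgeR adjusted p = 0.0211 and 0.0249). It lost the call without WT replicate 2 (0.53 and 0.52, edgeR adjusted p = 0.151 and 0.146) or WT replicate 3 (0.53 and 0.50, 0.0721 and 0.0775). The same held without elav null replicate 1 (0.59, 0.0636) and without double null replicates 1 and 3 (0.53 and 0.61, 0.107 and 0.0639).

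Of 9 matched genes of chitin matrix organisation and deacetylation, 5 were lower and 1 higher in each null group, with medians of −0.98 (elav null) and −0.89 (double null). obst-A, whose product scaffolds the chitin matrix, averaged 8.20 ± 8.74 CPM in elav null and 18.4 ± 0.478 CPM in the double null, against 92.8 ± 32.4 CPM in WT (edgeR adjusted p = 0.00129 and 0.0109). obst-E, another chitin-binding protein gene, averaged 39.5 ± 38.8 CPM in elav null and 77.7 ± 4.85 CPM in the double null, against 243 ± 86.8 CPM in WT (edgeR adjusted p = 0.00312 and 0.0323). Its double null call was lost under DESeq2 (0.0579), RLE factors (0.051) and without WT replicate 1 or 2 (0.119 and 0.0631) or any single double null library (0.0911 to 0.11). Cda4, a deacetylase gene, fell by a log2 of 1.22 ± 0.16 and 0.71 ± 0.16 SE (edgeR adjusted p = 0.000139 and 0.00455). Cda5 (−0.98 and −0.89, 0.0157 and 0.0216) and Cda9 (−0.87 and −1.31, 0.0442 and 0.00401) were also lower. Without WT replicate 3, Cda5 lost both calls (0.0585 and 0.086). In elav null, Cda9 lost its call with RLE factors, no filter, only the 6 libraries compared or the replicate block. It was also lost without any single WT library or the library labelled elav null replicate 3 (0.0616 to 0.13). Gasp, a chitin-binding protein gene of the tracheal lumen, averaged 351 ± 102 CPM in elav null and 425 ± 54.8 CPM in the double null, against 171 ± 33.9 CPM in WT (edgeR adjusted p = 0.0068 and 0.0011), and the call in elav null was lost without the 3 libraries of fewest detected genes (0.71, 0.13). The count of lower genes ran from 3 to 7 in elav null and from 3 to 4 in the double null as single libraries were left out. It was 3 in elav null without WT replicate 3, and 3 in the double null without its replicate 1 or 3. Of 3 genes that break down chitin oligosaccharides, the hexosaminidase gene Hexo1 was higher in both null groups. Hexo1 averaged 103 ± 7.02 CPM in elav null and 107 ± 4.50 CPM in the double null, against 49.3 ± 2.14 CPM in WT (edgeR adjusted p = 0.000131 and 7.25e-05). The list of 10 transcription factor genes held epidermal and tracheal genes together with ecdysone-response genes such as Eip74EF. Of the 10, 2 were lower in elav null (grh and Eip74EF) and 1 in the double null (Eip74EF). The list medians were −0.47 and −0.26. The call of grh in elav null (−0.67, edgeR adjusted p = 0.0331) was lost without WT replicate 3 (0.115) and without either of elav null replicates 1 and 2 (0.115 and 0.108). It was also lost with RLE factors (0.0667) and when only the 6 libraries compared were fitted (0.158). Eip74EF (−1.93 and −1.24, edgeR adjusted p = 0.00112 and 0.0141) lost its double null call without WT replicate 1 (0.0566) or double null replicate 1 or 2 (0.0595 and 0.062). No gene of these 4 lists was called in elav WDd against WT by edgeR.

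Among the 10 chitinases, Cht5 and Cht6 were lower and Cht4 and Cht9 higher in elav null, and Cht5 was lower and Cht4 and Cht9 higher in the double null. The family's median log2 fold change was −0.19 in elav null and 0.01 in double null embryos. Cht5 (CG9307, 3R: 13767549 to 13770732, plus strand) encodes an epidermal chitinase whose relatives in other insects degrade old cuticle at the moult. It stood at 7.06, 5.17 and 2.09 CPM in elav null, 8.23, 1.06 and 6.57 CPM in the double null, 184, 128 and 175 CPM in elav WDd, and 131, 23.5 and 72.3 CPM in WT. Every null library lay below every WT library, and WT itself was spread widely, with replicate 2 far below replicate 1. The log2 fold change was −3.95 ± 0.72 SE in elav null embryos and −3.85 ± 0.72 in the double null (edgeR adjusted p = 0.00176 and 0.00159). In elav WDd it was 1.10 ± 0.64 and did not pass (edgeR adjusted p = 1). The falls in elav null and the double null passed in all 12 alternatives each, with log2 fold changes from −4.42 to −3.28 and from −4.30 to −3.16. Of 8 epidermal markers 1 was lower in each null group, and their summed level was 95.5 to 161 CPM in elav null, 189 to 212 CPM in the double null, 202 to 249 CPM in elav WDd and 177 to 231 CPM in WT. The part of epidermal RNA in the Cht5 level was not tested.

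Cht4 (CG3986, 2R: 21065379 to 21067087, minus strand) and Cht9 (CG10531, 2R: 21067992 to 21069286, minus strand) lie beside Cht8 and Cht12 on 2R. Cht4 stood at 71.95, 114 and 28.7 CPM in elav null, 34.8, 42.5 and 42.1 CPM in the double null, 4.33, 3.92 and 3.81 CPM in elav WDd, and 8.98, 6.94 and 8.60 CPM in WT. The null libraries were all higher than WT and the WDd libraries all lower. The log2 fold change was 3.13 ± 0.37 SE in elav null embryos and 2.28 ± 0.36 in the double null (edgeR adjusted p = 8.06e-05 and 0.00046), and both passed in all 12 alternatives each. In elav WDd it was −1.03 ± 0.35 and did not pass (edgeR adjusted p = 0.648). It did pass without the 3 libraries of fewest detected genes (−1.03, edgeR adjusted p = 0.0336). Cht9 stood at 33.4, 33.2 and 24.4 CPM in elav null, 24.4, 31.5 and 24.7 CPM in the double null, 9.92, 10.7 and 13.3 CPM in elav WDd, and 14.2, 13.7 and 8.40 CPM in WT. It rose by a log2 of 1.33 ± 0.24 SE in elav null embryos and 1.15 ± 0.24 in the double null (edgeR adjusted p = 0.00183 and 0.00373), in all 12 alternatives each. Cht9, Cht6 and knk overlap antisense RNA genes, and reads of the 2 strands may be mixed in their counts, since the strand setting is not stated. Cht8 and Cht12, whose 3′ ends overlap, stayed at or below 1.45 CPM in every library and were not called. Cht12 was called lower without elav null replicate 2 (edgeR adjusted p = 0.0188), a fit in which no count of it remained in elav null. Of 7 midgut markers, 5 were higher in each null group, where 5.99% (elav null) and 6.68% (double null) of all genes tested were higher. Their summed level was 7529 to 8594 CPM in elav null, 6869 to 8358 CPM in the double null, 2995 to 3664 CPM in elav WDd and 3291 to 4064 CPM in WT. Within elav null these sums were close together, while Cht4 ran from 28.7 to 114 CPM. In elav WDd the sums overlapped WT, while every Cht4 library lay below WT. The part of midgut RNA in the Cht4 and Cht9 levels was not tested.

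Cht6 (CG43374, X: 10016845 to 10050803, plus strand) was the chitinase gene with the most counts in WT. It stood at 92.0, 63.5 and 176 CPM in elav null, 151, 138 and 151.5 CPM in the double null, 188, 368 and 250 CPM in elav WDd, and 161, 241 and 335 CPM in WT. The library labelled elav null replicate 3 fell within the WT range. The log2 fold change of −1.16 ± 0.36 SE in elav null passed (edgeR adjusted p = 0.0385), but not without WT replicate 2 (−1.18, 0.0627) or WT replicate 3 (−0.86, 0.142). It was also lost without elav null replicate 1 (−1.03, 0.114) or elav null replicate 2 (−0.87, 0.115). Cht7, a membrane-bound chitinase in other insects, stood at 87.2, 63.6 and 184 CPM in elav null, 142, 139 and 118 CPM in the double null, 212, 249 and 251 CPM in elav WDd, and 205, 182 and 174.5 CPM in WT. Its log2 fold change in elav null was −0.75 ± 0.29 SE and did not pass (edgeR adjusted p = 0.102). Without the library labelled elav null replicate 3 it passed (−1.30, edgeR adjusted p = 0.000336). Cht10, Cht2 and Cht11 showed log2 fold changes between −0.21 and 0.18 in all 3 comparisons with WT, and none was called. Cht2 stood at 79.7, 58.0 and 76.7 CPM in elav null, 71.0, 80.5 and 66.9 CPM in the double null, 101, 79.8 and 90.1 CPM in elav WDd, and 90.6, 74.6 and 75.1 CPM in WT. Cht10 stood at 61.0, 43.0 and 83.4 CPM in elav null, 71.7, 88.4 and 59.9 CPM in the double null, 54.2, 72.8 and 64.7 CPM in elav WDd, and 42.3, 70.4 and 81.2 CPM in WT. For both genes the groups overlapped in every comparison with WT. Per kilobase of exon the order in WT was Cht7 (47.3 CPM), Cht5 (35.7), Cht2 (26.4), Cht6 (15.2), Cht9 (10.4), Cht10 (8.77), Cht4 (5.55) and Cht11 (2.99), and the large spread of Cht5 keeps it from being placed against its neighbours. In elav null the highest per kilobase was Cht4, at 48.5 CPM.

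All 6 Idgf genes had positive log2 fold changes in both null groups under every scaling tried, with medians of 0.48 in elav null embryos and 0.53 in the double null, against −0.11 and −0.03 over all genes tested. Idgf3 and Idgf5 were called higher in elav null, and Idgf3, Idgf5 and Idgf6 in the double null. Idgf1 and Idgf2 overlap CG5888 and Idgf6 overlaps Pgant9, so part of their reads may belong to those genes. Idgf3 (CG4559, 2L: 16450907 to 16455194, plus strand) stood at 235, 209 and 312 CPM in elav null, 282, 298 and 232 CPM in the double null, 129, 98.8 and 137 CPM in elav WDd, and 134, 108 and 112 CPM in WT. Its lowest null library lay well above the highest WT library. It rose by a log2 of 1.10 ± 0.19 SE in elav null embryos and 1.20 ± 0.19 in the double null (edgeR adjusted p = 0.00136 and 0.000575), and did so in all 12 alternatives each. Idgf1 and Idgf2 are the neighbours of Idgf3 in a row of 3 genes on the same strand. With TMM factors and all 12 libraries neither was called. Idgf2 stood at 355, 309 and 477 CPM in elav null, 424, 390 and 332 CPM in the double null, 436.5, 310.5 and 446 CPM in elav WDd, and 419, 274 and 282 CPM in WT. The log2 fold changes of Idgf1 were 0.43 ± 0.20 and 0.41 ± 0.20 SE, and those of Idgf2 0.23 ± 0.23 and 0.23 ± 0.23, in elav null and the double null (edgeR adjusted p = 0.157 to 0.565). DESeq2 called Idgf1 higher in the double null (0.54, adjusted p = 0.0376). In elav WDd, DESeq2 called Idgf1 lower against elav null (−0.63, adjusted p = 0.0158) and against the double null (−0.64, 0.011). The same held with RLE factors (−0.63 and −0.64, edgeR adjusted p = 0.0402 and 0.0305). It also held against elav null without its replicate 2 (−0.67, edgeR adjusted p = 0.0481). Against the double null it held with only the 6 libraries compared (−0.55, edgeR adjusted p = 0.04). Whether the neighbours differed from Idgf3 in their response was not tested.

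Idgf5 (CG5154, 2R: 18393666 to 18395282, plus strand) was the least abundant Idgf gene. It stood at 39.5, 36.7 and 85.6 CPM in elav null, 61.7, 57.7 and 39.8 CPM in the double null, 25.1, 23.2 and 28.0 CPM in elav WDd, and 25.6, 21.0 and 15.4 CPM in WT. It rose by a log2 of 1.38 ± 0.31 SE in elav null embryos and 1.36 ± 0.31 in the double null (edgeR adjusted p = 0.00679 and 0.00586). The call in elav null was lost without the 3 libraries of fewest detected genes (0.84, edgeR adjusted p = 0.101), where elav null kept 1 library. Idgf6 (CG5210, 2R: 16691022 to 16693751, plus strand), also named DS47 and first found as a protein secreted by haemocyte-like cultured cells, stood at 777, 582 and 762 CPM in elav null, 818, 800 and 669 CPM in the double null, 543, 464 and 555 CPM in elav WDd, and 579, 446 and 439 CPM in WT. Its rise of 0.64 ± 0.18 SE on the log2 scale passed in the double null (edgeR adjusted p = 0.0217). It did not pass without WT replicate 2 (0.58, 0.106), WT replicate 3 (0.59, 0.0555), double null replicate 1 (0.60, 0.0806) or double null replicate 2 (0.63, 0.0616). In elav null the log2 fold change was 0.54 ± 0.18 SE (edgeR adjusted p = 0.0597), and it passed without WT replicate 1 (0.69, 0.0286) or elav null replicate 2 (0.66, 0.0348), and with RLE factors (0.63, 0.0221) or DESeq2 (0.63, 0.00171). Idgf4, on the X chromosome, was the most abundant per kilobase of exon, at 441 CPM in elav null, 482.5 CPM in the double null, 371 CPM in elav WDd and 412 CPM in WT. Its libraries stood at 854, 656 and 917 CPM in elav null, 948, 921.5 and 785 CPM in the double null, 667, 624 and 751 CPM in elav WDd, and 821, 674 and 771 CPM in WT. With TMM factors and all 12 libraries it was not called in any of the 6 comparisons. In elav WDd against the double null it was lower with DESeq2 (−0.51, adjusted p = 0.00817) and with RLE factors (−0.51, edgeR adjusted p = 0.0461). The same held when only the 6 libraries compared were fitted (−0.42, edgeR adjusted p = 0.0385). Haemocyte markers were higher in part. Of 6, 3 were higher in elav null embryos and 2 in the double null, where 5.99% and 6.68% of all genes tested were higher. Their summed levels were 205 to 330 CPM in elav null, 323 to 379 CPM in the double null, 221 to 292 CPM in elav WDd and 209 to 304 CPM in WT. Fat body markers summed to 1001 to 1882 CPM in elav null, 902 to 1582 CPM in the double null, 1679 to 2020 CPM in elav WDd and 1606 to 2532 CPM in WT. Of the 5 fat body markers tested, none was called for elav null against WT, and 1 was lower for the double null. Their median log2 fold change against WT was 0.24 (elav null), 1.82 (double null) and −0.23 (elav WDd). The sums alone thus do not describe these markers. The part of these cell types in the Idgf levels was not tested.

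**Figure D3:**
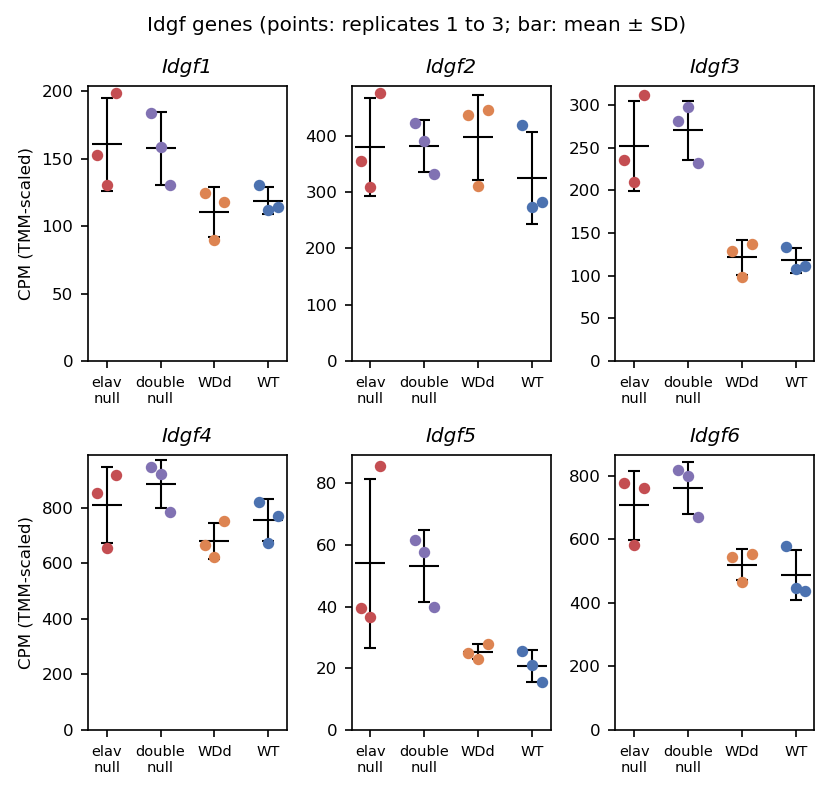
CPM of the 6 Idgf genes in each library of the groups elav null, then elav fne double null, then elav WDd, then WT, on linear axes that start at 0. Points are replicates 1 to 3 and bars give mean ± SD of the 3. The null libraries of Idgf3 lie between 209 and 312 CPM, above the WT libraries at 108 to 134 CPM, while Idgf2 and Idgf4 overlap between the groups.

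The Osiris genes were low in most libraries, and the few that were not varied most between libraries of the same group. Of 25 genes, 22 lie in a cluster of 167.9 kb on 3R (6173549 to 6341424 on dm6), 20 of them on the plus strand and 2 on the minus strand, and Osi21 to Osi23 lie elsewhere. In 12 genes no group averaged 1 CPM, and none of their libraries passed 1.39 CPM. Osi5 and Osi13, which are among them, did not pass the filter. The 22 clustered genes summed to 20.7, 13.5 and 17.1 CPM in elav null, 16.6, 17.6 and 17.5 CPM in the double null, 17.6, 91.1 and 174 CPM in elav WDd, and 155.5, 26.8 and 16.1 CPM in WT. The high libraries were thus WDd replicates 2 and 3 and WT replicate 1. WDd replicate 1 and WT replicate 3 stood at the level of the null libraries. Of the 13 Osiris genes that averaged at least 1 CPM in a group, 12 were highest in replicate 3 and 9 lowest in replicate 1 of the WDd libraries, and 9 were highest in replicate 1 and 10 lowest in replicate 3 of the WT libraries.

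Osi15 (CG1157, 3R: 6301804 to 6303653, plus strand) carried the largest share of this, with 41.7% and 33.3% of the summed level in WDd replicates 2 and 3 and 35.4% in WT replicate 1. It stood at 0, 0.572 and 0 CPM in elav null, 0.253, 0.548 and 0.767 CPM in the double null, 1.28, 38.0 and 57.8 CPM in elav WDd, and 55.1, 5.92 and 0.211 CPM in WT. The WT replicates spanned 5048, 414 and 14 reads, a 261-fold range in CPM, and WT replicate 3 lay below all double null libraries. The log2 fold change was −6.72 ± 1.91 SE in elav null embryos and −5.29 ± 1.71 in the double null (edgeR adjusted p = 0.0266 and 0.0412), and the size of the elav null value depends on those zeros of replicates 1 and 3. Without WT replicate 1 it was −3.95 and −2.53, and neither passed (edgeR adjusted p = 0.135 and 0.295). The call in elav null was also lost without elav null replicate 1 (−5.90, 0.0799) or replicate 3 (−6.40, 0.0642). The call in the double null was lost without WT replicate 2 (−5.78, 0.0511) or any single double null library (−5.65 to −4.95, 0.11 to 0.146). With the replicate number as a block the call was lost in elav null and the double null (edgeR adjusted p = 0.0702 and 0.116).

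Osi20 (CG15188, 3R: 6340095 to 6341424, plus strand), the last gene of the cluster, had no read in any elav null library. It stood at 0.332, 0.757 and 0.339 CPM in the double null, 0.505, 16.9 and 34.3 CPM in elav WDd, and 31.4, 0.572 and 0.0754 CPM in WT. It was called lower in elav null (edgeR adjusted p = 0.0221), but no fold is given, because elav null replicates 1 and 3 lack low counts and a 0 there may stand for more than a few reads. WT replicate 1 held 2874 reads, and WT replicates 2 and 3 held 40 and 5. The call was lost without WT replicate 1 (edgeR adjusted p = 0.0699), elav null replicate 1 (0.0673) or elav null replicate 2 (0.0592), and with the replicate block (0.0797). In the double null the log2 fold change was negative and did not pass, and it passed without WT replicate 3 (−5.05, edgeR adjusted p = 0.0458). Osi2 (CG1148, 3R: 6209373 to 6213493, plus strand) stood at 0.484, 1.65 and 0 CPM in elav null, 0.805, 2.19 and 0.517 CPM in the double null, 2.698, 7.002 and 9.88 CPM in elav WDd, and 15.4, 4.79 and 3.56 CPM in WT. No null library reached the lowest WT library. The fall in elav null was −3.44 ± 1.06 SE on the log2 scale (edgeR adjusted p = 0.0392), and it lost the call without WT replicate 1 (−2.50, 0.175), WT replicate 2 (−3.72, 0.0623) or elav null replicate 1 (−3.19, 0.109). In the double null its log2 fold change of −2.75 did not pass in edgeR (adjusted p = 0.0756), and it passed in DESeq2 (−2.62, adjusted p = 0.0178). Osi14 (CG1155, 3R: 6299128 to 6300738, plus strand) stood at 7.80, 3.52 and 1.25 CPM in elav null, 3.17, 2.53 and 3.32 CPM in the double null, 2.90, 5.18 and 10.5 CPM in elav WDd, and 9.78, 3.57 and 2.79 CPM in WT. Its groups overlapped and it was not called in any of the 6 comparisons.

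Osi9, Osi18 and Osi19 divided the libraries in the same way and were not called in any of the 6 comparisons. Osi9 stood at 0.274, 4.48 and 13.8 CPM in elav WDd, against 9.04, 0.214 and 0.0754 CPM in WT. Osi18 stood at 0.202, 4.96 and 13.5 CPM in elav WDd, against 10.7, 0.272 and 0 CPM in WT. Osi19 stood at 0.592, 6.55 and 16.0 CPM in elav WDd, against 11.5, 0.6002 and 0.0754 CPM in WT. In elav WDd replicate 3 and in WT replicate 1 each of these genes was at its highest for the group. The library labelled elav null replicate 3 held 67 reads of Osi19 (3.11 CPM) and the other elav null libraries none. Without that library Osi19 was called lower in elav null (edgeR adjusted p = 0.0285), with no read left in that group. Over the 23 Osiris genes tested, the median log2 fold change was −0.72 (elav null), −0.17 (double null) and 0.22 (elav WDd), against −0.11, −0.03 and −0.03 over all genes. The elav null median mixes well and barely expressed genes and rests in part on zeros that cannot be set beside those of other libraries. Among the 11 genes that averaged at least 1 CPM over all 12 libraries, 4, 2 and 7 were at 0 in elav null replicates 1, 2 and 3, and the medians were −2.66 (elav null, with Osi20 ranked lowest), −2.69 (double null) and 0.66 (elav WDd). Among the 12 others, 8, 4 and 7 were at 0 in those libraries, and the medians were 1.09 (elav null, with Osi16 ranked lowest), 1.33 (double null) and −0.39 (elav WDd). The split used the mean of the same libraries that are compared. Osi15 and Osi20, for example, fell among the 11 only through high WDd and WT libraries. The medians of both sets follow in part from that choice, and no conclusion is drawn from them. Of the 23, 3 were lower in elav null, 1 was lower in the double null and none was higher in either by edgeR. Over all genes tested, 11.7% were lower and 5.99% higher in elav null, and 14.7% and 6.68% in the double null. DESeq2 called Osi22 higher in elav null embryos (4.20, adjusted p = 0.0314) and double null embryos (4.28, adjusted p = 0.0218), with 6 reads of it in the 3 WT libraries together. In the cluster's span 6 other genes are annotated, of which 4 were tested and none was called against WT. The neuropeptide receptor gene NPFR was one of them, with log2 fold changes of 0.13, −0.35 and 0.08 in that order of mutants (edgeR adjusted p = 0.762, 0.322 and 1).

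**Figure D4:**
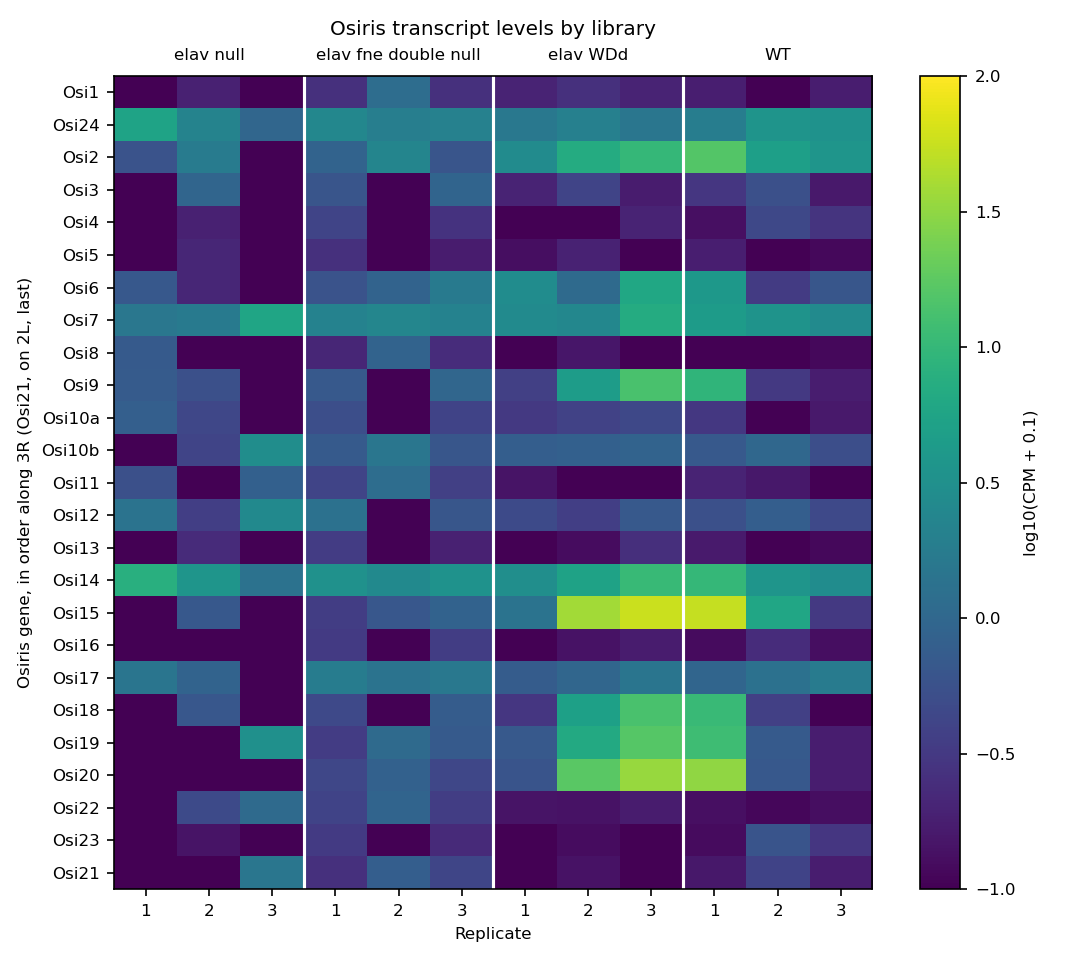
Level of the 25 Osiris genes as log10(CPM + 0.1), with genes in rows in chromosomal order and the 12 libraries in columns, in the order elav null, then elav fne double null, then elav WDd, then WT. Osi15 and Osi18 to Osi20 stand out in WDd replicates 2 and 3 and in WT replicate 1, where the 22 clustered genes summed to 91.1, 174 and 155.5 CPM.

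The mutants were also compared with each other. Loss of fne on top of elav was examined by setting the double null against elav null, where 0.0428% of all genes were higher and 0.185% lower (0.228% in either direction). None of the 43 genes was called by edgeR or DESeq2, and 2 had an unadjusted p under 0.05. These were Osi16, which had no read in elav null, and Cht4 (log2 fold change −0.85 ± 0.35 SE, edgeR adjusted p = 0.314). When the fne-poor library labelled elav null replicate 3 was left out, Cht4 was lower (−1.22, edgeR adjusted p = 0.00295) and Cht7 higher in the double null (0.83, 0.0145). Without the 3 libraries of fewest detected genes, elav null kept only replicate 2, the library with the most eggshell and yolk RNA. The log2 fold changes were then −1.55 for Cht4, 1.04 for Cht7 and 1.13 for verm. With a single elav null library, this fit cannot show how far elav null embryos vary.

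In elav WDd against elav null 6 genes were higher and 4 lower, where 11.0% of all genes were higher and 5.83% lower (16.8% in either direction). The genes higher in elav WDd were verm, Cht5, Cht6, Cht7, Osi15 and Osi20, and those lower were Cht4, Cht9, Idgf3 and Idgf5. Cht5 averaged 162 ± 30.4 CPM in elav WDd and 4.77 ± 2.51 CPM in elav null (SD, n = 3; log2 fold change 5.06 ± 0.76 SE, edgeR adjusted p = 0.000446). Cht4 averaged 4.02 ± 0.275 CPM in elav WDd and 71.4 ± 42.4 CPM in elav null (−4.15 ± 0.39, edgeR adjusted p = 1.68e-05). The number that were higher was 2 without WDd replicate 3, 3 without elav null replicate 1 and 8 when the library labelled elav null replicate 3 was left out. Without WDd replicate 3 the calls of verm, Cht6, Cht7 and Osi15 were lost (edgeR adjusted p = 0.0994, 0.0525, 0.0677 and 0.052), and without elav null replicate 1 those of Cht6, Cht7, Osi15 and Osi20 (0.0793, 0.077, 0.0609 and 0.0553). Without elav null replicate 2 the calls of verm, Cht6 and Cht7 were lost (0.0516, 0.0804 and 0.0596), and without WDd replicate 2 that of Cht6 (0.0682). Idgf5 lost its call without any single WDd library (0.0637 to 0.10) or the library labelled elav null replicate 3 (0.0978). In elav WDd against the double null 2 genes were higher, Cht5 and Osi15, and 5 lower, Cht4, Cht9, Idgf3, Idgf5 and Idgf6, where 14.3% of all genes were higher and 6.60% lower (20.9% in either direction). Cht5 differed by 4.95 ± 0.76 SE on the log2 scale and Cht4 by −3.31 ± 0.38 (edgeR adjusted p = 0.000412 and 4.81e-05). Idgf5 and Idgf6 lost their calls without any single WDd library (edgeR adjusted p = 0.0539 to 0.0832 for Idgf5 and 0.0947 to 0.168 for Idgf6), or without double null replicate 1 (0.0887 and 0.141) or replicate 2 (0.0691 and 0.107). Osi15 lost its call without WDd replicate 2 (0.0547) or replicate 3 (0.079), or without any single double null library (0.0836 to 0.109), and with the replicate block (0.0559). These comparisons share libraries with those against WT, and are not independent of them.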

How the data were processed

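Gene counts were analysed for 12 libraries in 4 groups. The authors' deposited table holds raw counts, with a column for each library. The submitters' processing notes name DESeq2 1.40.2, featureCounts 2.0.8, STAR 2.7.11a, Trim Galore 0.6.7 and build dm6, without roles. Strandedness of the counting and the handling of multi-mapped reads are not given in the sources used here, and 12 of the 45 genes overlap the span of another gene. All 17561 gene numbers matched a RefSeq gene, which gave symbols and positions. Strand and exon lengths came from the Ensembl annotation of the same assembly. Per the file headers the control columns name the elav null allele over FM7.

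TMM factors, filterByExpr and quasi-likelihood F tests of edgeR 4.0.16 (R 4.3.3) were run on all 12 libraries in 1 model with group as its only term. Tests were two-sided and adjusted over 14031 genes. CPM values are TMM-scaled. Detection floors of 3 counts correspond to 0.0328 to 0.139 CPM in a library and cover counting error only. They do not hold for the 3 libraries that lack low counts.

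The members and lists were chosen with earlier results of these data known. Values in every library are given for kkv, knk, serp and verm, for the 4 most abundant genes of each family, and for genes called in at least 2 comparisons with WT. Osi9, Osi18, Osi19, Osi22, Cht12, NPFR and Cda5 were named after their values were seen. The list symbols knk2, knk3, dsx-c and wurst matched no gene. Alternatives were RLE factors, DESeq2 1.42.0, no filter, only the 6 libraries compared, a replicate block, each library left out in turn, and 3 libraries left out together. Sequences were not used here.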

Additional observations from a re-analysis of the deposited data

How the results depend on the processing

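No called gene changed direction in any of the alternatives tried for it, up to 12 a call. Of 35 calls (a gene in a comparison), 17 held in every alternative, and of 419 recomputed values 342 stayed past the threshold. Fitting only the 6 libraries compared gave 2 lower genes in elav null against WT, 5 lower in the double null against WT, 3 higher in WDd against elav null, and 7 higher and 8 lower in WDd against the double null. DESeq2 gave 4 higher and 8 lower in WDd against the double null. With the 3 libraries of fewest detected genes left out, 4 were lower in the double null against WT and 1 lower in WDd against WT. In that fit elav null kept a single library, so its comparisons with the other mutants are not counted here. Leaving out single libraries gave 4 to 5 higher and 3 to 9 lower genes in elav null against WT, 4 to 5 higher and 1 to 3 lower in the double null against WT, and 0 in WDd against WT. It gave 0 to 1 higher and 0 to 1 lower in the double null against elav null, 2 to 8 higher and 3 to 5 lower in WDd against elav null, and 1 to 2 higher and 3 to 5 lower in WDd against the double null. The causes were not tested.

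With the replicate number as a block, 1 gene was lower in the double null against WT and 1 higher in WDd against the double null. Libraries of the same number did not deviate together in every pair, with correlations from −0.24 to 0.242. Pairs of different number ran from −0.281 to 0.302. These values cannot show whether libraries of the same number share more than a number. Under RLE factors the median log2 fold change of all genes in the double null against WT was 0.10, against −0.03 with TMM. All 6 Idgf genes stayed positive against WT in both null groups under RLE, and in WDd against either null group Idgf genes were 1 positive and 5 negative with TMM but 0 and 6 with RLE.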

Other observations

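Low counts were distributed differently in 3 libraries. Genes with 1 to 10 reads numbered 168 in elav null replicate 1, 116 in elav null replicate 3 (the library so labelled) and 157 in double null replicate 2, and 978 to 2828 in the other 9 libraries. The tenth percentile of the non-zero counts was 59, 41 and 82 reads in those 3 libraries and 4 to 15 reads in the others. Of the 25 Osiris genes, 11, 9 and 15 had a read there, and 19 to 25 in each of the other libraries.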
